A study of Mus musculus with 24 samples.

Results

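Marrow cells of mice given any of 3 inhibitor treatments were compared with marrow cells of mice given vehicle. The 9 treated specimens (numbered 4 to 12) were set against the 3 vehicle specimens (1 to 3), out of 12 in all, and the genes described here are those whose level in every treated specimen lay on the same side of every vehicle specimen. Of 12742 genes tested, 702 (5.51%) met this rule: 321 were above vehicle in all 9 treated specimens and 381 were below it. All mice carried Shp2 E76K, which leaves the phosphatase made from Ptpn11 constantly active and is found in juvenile myelomonocytic leukemia, so the vehicle group carries it too and no mouse without it enters the comparison. Bulk RNA-seq was made from bone marrow mononuclear cells after 3 weeks of vehicle, of ACP196 (acalabrutinib, which blocks the kinase BTK; specimens 4 to 6), of ACP319 (which blocks p110δ, a catalytic subunit of phosphoinositide 3-kinase or PI3K; specimens 7 to 9), or of both compounds (specimens 10 to 12). The strain, the age of the mice, the doses and how the mutant allele was expressed are not stated in the labels used here.

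SHP2 passes signals from cytokine and growth factor receptors to the RAS and ERK pathway, and its activated form makes myeloid cells over-responsive to such factors. BTK acts below the B-cell receptor and several myeloid receptors, and p110δ is the PI3K isoform that leukocytes use most. Type I interferon acts through the kinases JAK1 and TYK2 and a factor complex with STAT2 and IRF9, which binds a short promoter element and switches on antiviral genes. Marrow also makes red cells, whose precursors build heme from simple precursors in a chain of enzymes.

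The genes below vehicle included many that respond to interferon, and 4 of their promoters are shown because the interferon element can be read in them. Each is the 250 bases before the gene's start in RefSeq (GRCm38.p6), written 5′ to 3′ on the gene's own strand, and capitals mark the letters GAAANNGAAA found on either strand. They are Oas3 at chr5:120777660-120777909 on the minus strand, Stat2 at chr10:128270248-128270497, Gbp5 at chr3:142496684-142496933 and Irgm2 at chr11:58214727-58214976, the last 3 on the plus strand.
Oas3: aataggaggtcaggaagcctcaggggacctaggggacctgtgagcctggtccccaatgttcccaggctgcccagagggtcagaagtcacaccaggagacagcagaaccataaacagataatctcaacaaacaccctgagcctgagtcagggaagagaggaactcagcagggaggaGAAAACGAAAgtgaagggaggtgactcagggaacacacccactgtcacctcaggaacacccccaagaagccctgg
Stat2: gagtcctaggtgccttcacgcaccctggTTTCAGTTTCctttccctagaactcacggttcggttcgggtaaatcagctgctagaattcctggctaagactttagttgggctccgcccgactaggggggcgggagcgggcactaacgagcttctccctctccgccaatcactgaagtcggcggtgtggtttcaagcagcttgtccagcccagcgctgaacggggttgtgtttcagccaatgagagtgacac
Gbp5: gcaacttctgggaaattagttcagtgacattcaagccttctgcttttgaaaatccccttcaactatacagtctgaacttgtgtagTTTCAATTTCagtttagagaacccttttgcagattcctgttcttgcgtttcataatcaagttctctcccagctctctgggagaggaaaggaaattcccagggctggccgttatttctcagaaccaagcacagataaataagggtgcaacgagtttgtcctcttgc
Irgm2: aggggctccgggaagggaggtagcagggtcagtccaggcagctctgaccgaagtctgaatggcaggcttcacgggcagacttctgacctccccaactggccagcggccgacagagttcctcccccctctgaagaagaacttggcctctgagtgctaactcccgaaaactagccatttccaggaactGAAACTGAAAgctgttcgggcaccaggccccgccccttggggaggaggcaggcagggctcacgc

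The element began 75 bases before the start of Oas3, 222 before Stat2, 165 before Gbp5 and 64 before Irgm2. Of the 11 interferon genes below vehicle, 9 had a RefSeq window (250 bases before to 50 after the start), and 5 of these windows (55.6%) held the letters: Oas3, Stat2, Gbp5, Irgm2 and Ddx58. Over all interferon list genes tested the share was 23 of 34 (67.6%), so the element was not more frequent in the genes below vehicle than in their list. It was 5.84% of the 291 windows of all genes below vehicle, 3.15% of the 222 windows of genes above vehicle, 3.23% of the windows of tested genes and 3.49% of 27025 RefSeq promoters. Among genes above vehicle, the GATA site AGATAA, the element of the erythroid factor GATA1, was in 1 of 8 windows of heme, iron and erythroid genes (Rhd), against 6.57% of 9691 windows of tested genes and 11.4% of all RefSeq promoters. It was also in 4 of 9 windows of the interferon genes below vehicle. The E2F sites TTTGGCGC, TTTCCCGC and TTTCGCGC were in 0 of 9 windows of replication genes above vehicle and in 12 of 32 windows of the whole replication list, against 3.67% of the windows of tested genes and 1.91% of all RefSeq promoters. A match is a description of these letters only, on both strands.

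No single gene passed the test across all genes. With edgeR's quasi-likelihood test and Benjamini-Hochberg adjustment, 0 of 12742 genes (0%) reached 0.05 after adjustment between treated and vehicle, and the smallest adjusted p was 0.131. At an unadjusted p under 0.05 there were 3176 genes, 1602 higher and 1574 lower. DESeq2 called 472 genes higher and 410 lower, and limma voom with sample quality weights called 1921 higher and 2009 lower by the same adjusted threshold. Without BTK inhibitor replicate 6, edgeR called 1163 genes higher and 1367 lower. The levels below are therefore descriptions: the 9-against-3 separation uses the same values as the test and gives no second line of evidence.

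The share of all tested genes above vehicle in all 9 treated specimens was 2.52%, and the share below was 2.99%. The counts of gene lists are read against these shares. The median log2 difference, treated minus vehicle, was 1.01 for genes above and -0.73 for genes below, against -0.00064 over all tested genes. Most separations were narrow: the median gap between the nearest treated and the nearest vehicle specimen was 0.094 (above) and 0.091 (below) on the log2 scale, and 54 genes above and 60 below had a gap of at least 0.25. Klhdc2 was just inside the rule, with a highest vehicle value and a lowest treated value both at 66.0 CPM (counts scaled to library size with edgeR's TMM factors), and Pot1a was just outside, at 28.6 and 28.5. On the other side Man1c1 was just inside, with a highest treated value of 38.7 against a lowest vehicle value of 38.8 CPM, and Tesk2 was just outside, with both at 39.9.

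Some libraries stood apart. BTK inhibitor replicate 5 had 8993950 counts, against up to 22154833 in the others, and Rn45s, the ribosomal RNA precursor, took 15.4% of them. BTK inhibitor replicate 6 carries another day in its title (30 against 24 in the other 11), and the labels do not say what was done on that day. Vehicle replicate 3 was the nearest vehicle specimen for 203 of 321 genes above and 237 of 381 below, and without it the counts were 893 and 1106. Without vehicle replicate 2 they were 626 and 747. BTK inhibitor replicate 6 and combination replicate 12 were most often the nearest treated specimens, with 107 and 99 of the genes above and 108 and 111 of those below. With BTK inhibitor replicates 5 and 6 both left out, 491 genes were above and 528 below, and they included 314 of the 321 and 367 of the 381.

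Gene length moved with the separation. The median length was 1873 bases for genes above vehicle and 3514 for genes below, against 2835 over all tested genes. With the tested genes cut into 5 equal bins of length, in the shortest bin 4.86% were above and 0.118% below, and in the longest 0.392% were above and 3.33% below. The slope of log2 CPM per kilobase on log2 length averaged -0.99 ± 0.28 in the treated (SD, n = 9) and -0.69 ± 0.16 in the vehicle specimens (SD, n = 3), a difference of -0.30 (exact permutation test over 220 groupings, two-sided, p = 0.114). The groups overlapped, since 3 of the treated slopes lay within the vehicle range. With each specimen's length trend removed, 360 genes were above and 440 below, among them 188 (58.6%) and 212 (55.6%) of those reported here. The part of length in any single gene's level was not tested.

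**Figure D1:**
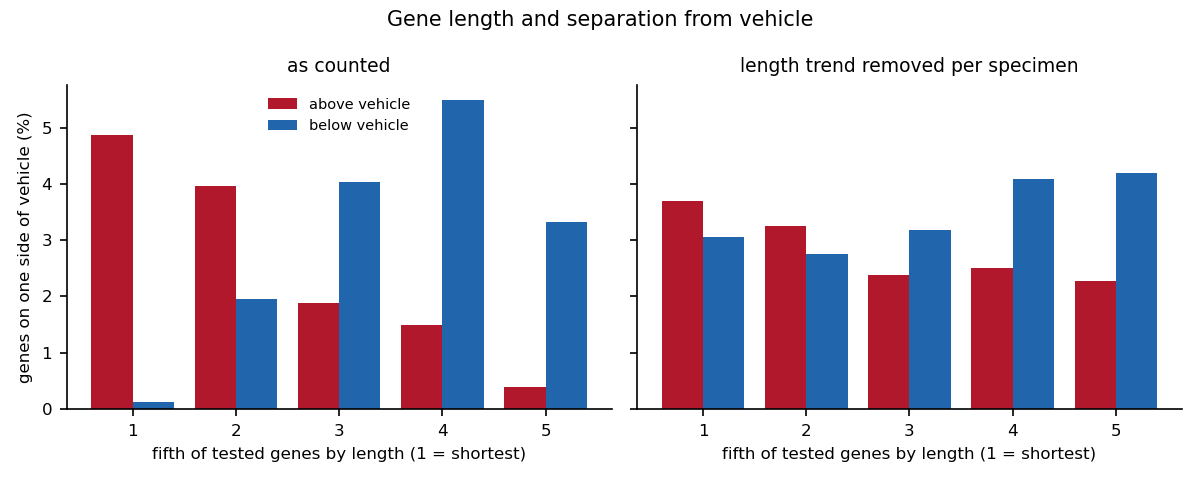
Share of tested genes (y axis, %) that lay above (red) or below (blue) vehicle in all 9 treated specimens, in 5 equal bins of gene length (x axis), as counted (left) and with each specimen's length trend removed (right). As counted, the share above runs from 4.86% in the shortest bin to 0.392% in the longest, and with the trend removed from 3.69% to 2.28%.

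Interferon-stimulated genes, the antiviral effectors induced through interferon receptors, were among the genes below vehicle. Of 35 tested members, 9 (25.7%) were below in all 9 treated specimens and 0 above. The 9 included Cmpk2, Ddx58, Irf7, Oas3, Oasl1, Oasl2, Parp14 and Stat2. The list's median log2 difference was -0.84, with 32 of 35 members negative, and none passed the edgeR test (smallest adjusted p = 0.131). Its summed level was 2466, 2121 and 2811 CPM in the vehicle specimens and between 1457 and 1944 CPM in the treated ones, without overlap. The mean log2 CPM of its members, which weights them equally, did overlap: relative to the vehicle mean, BTK inhibitor replicate 6 was at -0.29 and vehicle replicate 2 at -0.35. By treatment, against the same vehicle specimens, the medians were -0.73 with the BTK inhibitor, -0.80 with the PI3K inhibitor and -0.80 with both. With the length trend removed the median was -0.74 and 5 of the 9 were still separated, and with total-count scaling 7 were. In bulk marrow, fewer cells of a type and less RNA per cell cannot be told apart.

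Oas3 (mm10, chr5:120753098-120777659), an enzyme that makes the 2-5A messenger which activates RNase L on viral RNA, had the widest gap among them and carries the element printed above. It was at 174, 192 and 174 CPM in vehicle and from 38.8 to 128 CPM (median 72.6) in the treated specimens. BTK inhibitor replicate 6 was the highest treated specimen and BTK inhibitor replicate 5 the lowest, and the groups did not overlap. The log2 difference was -1.28 ± 0.26 SE. Oasl2 (chr5:114896934-114912245), a related antiviral protein, was at 128, 94.7 and 141 CPM in vehicle and from 23.0 to 73.4 (median 45.2) in the treated, a log2 difference of -1.49 ± 0.27 SE. Its 3 combination specimens lay close together, between 45.5 and 51.0 CPM. Irf7 (chr7:141263183-141266424), the factor that amplifies interferon production, was at 87.9, 73.7 and 109 CPM in vehicle and from 32.4 to 57.7 (median 46.5) in the treated. Its log2 difference was -1.03 with the BTK inhibitor, -0.97 with the PI3K inhibitor and -1.07 with both. Stat2, which carries the interferon signal itself, averaged 51.3 ± 2.40 CPM in vehicle (SD, n = 3) and 29.9 ± 12.2 in the treated (SD, n = 9). Ddx58, which encodes the viral RNA sensor RIG-I, averaged 63.0 ± 5.22 against 32.0 ± 10.9 CPM.

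The GTPases induced by interferon gamma, which attack the vacuoles of intracellular microbes, were all on the negative side (14 of 14), with a median of -0.67, and 2 of 14 (14.3%) were below vehicle in all 9: Irgm2 and Gbp5. The list's summed level did not overlap, at 213.8 to 271.2 CPM in vehicle and 75.5 to 208.7 in the treated. The mean log2 CPM of its members did overlap. Relative to the vehicle mean, BTK inhibitor replicate 6 was at -0.23, PI3K inhibitor replicate 7 at -0.24 and vehicle replicate 2 at -0.33. Irgm2 was at 34.6, 27.9 and 32.1 CPM in vehicle and from 12.3 to 21.2 (median 17.7) in the treated, a log2 difference of -0.83 ± 0.20 SE. BTK inhibitor replicate 5 was the lowest and combination replicate 10 the highest treated specimen, and the groups did not overlap. Both members were still separated with the length trend removed.

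**Figure D2:**
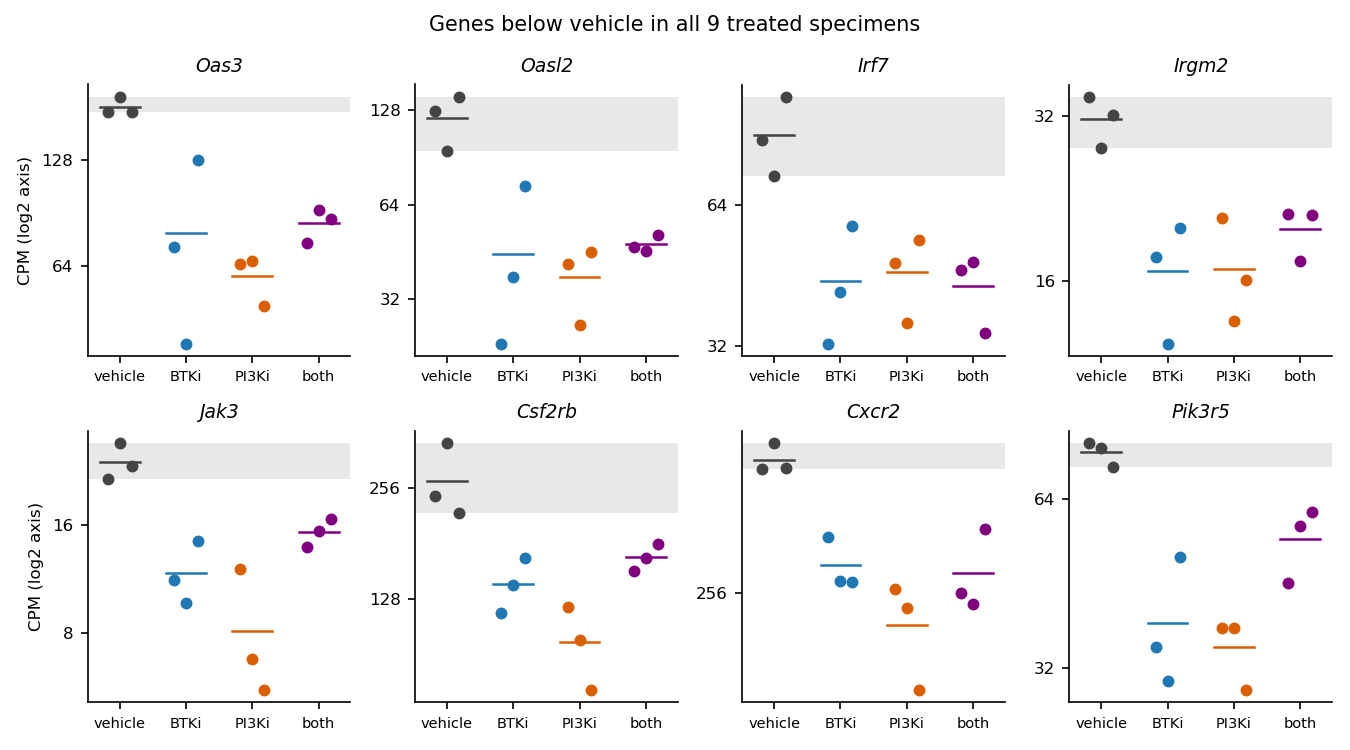
Level in each specimen (points, CPM on a log2 axis) of 8 genes below vehicle, by group, with group means as lines and the vehicle range shaded; "both" is the combination. In every panel the 9 treated points lie under the shaded range, and BTK inhibitor replicate 6 is the treated point nearest to it for Oas3, Oasl2 and Irf7.

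Some receptors and kinases of cytokine signalling were below vehicle as well. Of 32 tested members of the JAK-STAT and SOCS list, 8 (25.0%) were below in all 9 and 0 above: Csf1r, Csf2rb, Csf2rb2, Jak3, Pim1, Socs3, Stat4 and Stat6. The median was -0.51, and by treatment -0.57, -0.77 and -0.21. The list's summed level overlapped narrowly, at 2512 to 3147 CPM in vehicle and 1229 to 2517 in the treated. The mean log2 CPM of its members overlapped more. Relative to the vehicle mean, combination replicates 11 and 12 were at -0.14 and -0.03, and vehicle replicates 1 and 3 at -0.04 and -0.15. With the length trend removed 7 of the 8 were still separated (median -0.32), and with total-count scaling 3 were. Csf2rb, the shared beta chain of the receptors for GM-CSF, IL-3 and IL-5, was at 244, 339 and 219 CPM in vehicle and from 72.3 to 181 (median 139.9) in the treated, a log2 difference of -1.02 ± 0.21 SE. Csf2rb2 is a near-identical neighbour of it, so reads may have been split between them, and both are uncertain as single genes. Jak3 (chr8:71676383-71690577), the kinase bound to the common gamma chain of interleukin receptors, was at 21.5, 27.0 and 23.3 CPM in vehicle and from 5.57 to 16.6 (median 12.0) in the treated. The 2 lowest values were PI3K inhibitor replicates 8 and 9, at 6.81 and 5.57 CPM, and the highest treated values were combination replicates 12 and 11. Its exons overlap Insl3 on the same strand. Socs3, a feedback inhibitor that JAK-STAT signalling induces, was at 19.7, 19.2 and 25.5 CPM in vehicle and from 4.64 to 15.7 (median 10.3) in the treated. Csf1r, the receptor for the macrophage factor M-CSF, was at 180.2, 215 and 169 CPM in vehicle and from 26.9 to 159 (median 100.1) in the treated. Combination replicate 12 was the highest treated specimen for Csf1r and BTK inhibitor replicate 5 the lowest.

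Of the transcripts of the drug targets and the mutated gene, Pik3cd was below vehicle in all 9 and the other two were not. Btk was at 108, 88.5 and 104 CPM in vehicle and from 83.8 to 107 (median 98.9) in the treated, so the groups overlapped, with a log2 difference of -0.05 ± 0.17 SE. Ptpn11 was at 92.6, 144 and 93.7 CPM in vehicle and from 21.4 to 112 (median 77.6) in the treated, and it overlapped too. Pik3cd, which encodes p110δ, was at 215, 252 and 199 CPM in vehicle and from 93.4 to 178 (median 146) in the treated. All 9 treated values were below the lowest vehicle value, and the log2 difference was -0.67 ± 0.18 SE (edgeR's quasi-likelihood test, adjusted p = 0.135). With the length trend removed Pik3cd was no longer separated and the difference was -0.33.

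Around p110δ, 4 of 35 PI3K, AKT and mTOR genes (11.4%) were below vehicle in all 9: Akt1, Gab2, Pik3cd and Pik3r5. The median was -0.58, and -0.27 with the length trend removed, for genes whose median length was 5096 bases. By treatment it was -0.58 with the BTK inhibitor, -0.96 with the PI3K inhibitor and -0.14 with both. The list's summed level overlapped, at 2267 to 2989 CPM in vehicle and 1494 to 2351 in the treated. Its mean log2 CPM overlapped too, with combination replicate 11 at 0.01 and vehicle replicate 1 at -0.10 relative to the vehicle mean. With total-count scaling 2 of the 4 were separated. Pik3r5, the p101 regulatory subunit of PI3K gamma, was at 80.5, 78.9 and 73.1 CPM in vehicle and from 29.2 to 60.6 (median 37.7) in the treated, a log2 difference of -0.89 ± 0.19 SE. Gab2, an adaptor that recruits both SHP2 and PI3K, was at 31.7, 43.9 and 31.4 CPM in vehicle and from 11.5 to 29.3 (median 20.4) in the treated. For Pik3r5 and Gab2 alike the highest treated specimen was combination replicate 12 and the lowest PI3K inhibitor replicate 9. In the B-cell receptor and BTK list, 3 of 34 (8.82%) were below: Lyn, Syk and Vav3, kinases and an exchange factor that also act below myeloid receptors. The list's median was -0.40, and -0.23 with the length trend removed. Its summed level overlapped, at 2935 to 3495 CPM in vehicle and 1836 to 2956 in the treated. In mean log2 CPM relative to the vehicle mean, BTK inhibitor replicate 6 (0.113) lay above the highest vehicle specimen (replicate 2, 0.108). Of the 3, 2 were still separated with the length trend removed and 2 with total-count scaling. Lyn was at 255, 259 and 242 CPM in vehicle and from 114 to 199 (median 171) in the treated, and Syk at 395, 442 and 338 against 80.0 to 318 (median 236). Lcp2 encodes the adaptor SLP-76 and is not a member of the B-cell receptor and BTK list. It was at 204, 189 and 182 CPM in vehicle and from 67.4 to 142 (median 127) in the treated. The RAS, SHP2 and ERK list had 2 of 26 (7.69%) below, Gab2 and the exchange factor Rasgrp4, of which 0 were separated with total-count scaling, and the ERK output list had 1 of 26 (3.85%), Fosl2, a share near the 2.99% of all genes. Of the FOXO factors and targets 2 of 26 (7.69%) were below, while 9 of the 26 were positive and the list's median was -0.08. Its summed level overlapped, at 1831 to 2063 CPM in vehicle and 1314 to 1964 in the treated. The 2 genes below included the repressor Bcl6, at 71.1, 72.9 and 61.5 CPM in vehicle and from 15.8 to 49.5 (median 37.2) in the treated.

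Receptors for microbes and complement were among the genes below vehicle. Of 31 complement and Toll-like receptor genes 5 (16.1%) were below vehicle in all 9: C3ar1, C5ar2, Ticam2, Tlr13 and Tlr2, with a list median of -0.61. The list's summed level was between 2284 and 3159 CPM in vehicle and between 1296 and 2065 in the treated, without overlap. The mean log2 CPM of its members overlapped, with combination replicate 12 at -0.15 and vehicle replicate 2 at -0.17 relative to the vehicle mean. Of the 5, 2 were still separated with the length trend removed and 2 with total-count scaling. Tlr13, an endosomal receptor for bacterial ribosomal RNA, was at 125, 126 and 121 CPM in vehicle and from 11.1 to 93.5 (median 58.5) in the treated, a log2 difference of -1.20 ± 0.38 SE. The lowest value was BTK inhibitor replicate 5 and the highest combination replicate 12. C3ar1, the receptor for the complement fragment C3a, was at 11.9, 7.19 and 8.51 CPM in vehicle and from 0.404 to 6.32 (median 3.67) in the treated. Tarm1, an activating receptor of neutrophils and macrophages, had the widest gap of the named genes below vehicle (0.57 on the log2 scale). It was at 20.2, 19.6 and 18.7 CPM in vehicle and from 7.73 to 12.6 (median 11.5) in the treated. Of the NF-kB factors and targets 2 of 20 (10.0%) were below, Birc3 and Tnip1, and of the inflammatory cytokines and receptors 3 of 29 (10.3%), Cxcr2, Il18rap and Tnfrsf1a. Il18rap, a chain of the IL-18 receptor, was at 230.4, 207 and 181 CPM in vehicle and from 98.5 to 153 (median 142) in the treated.

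Glycolysis genes had 6 of 21 members (28.6%) below vehicle and 0 above, with a median of -0.37. The list's summed level overlapped, at 6294 to 8966 CPM in vehicle and 4558 to 8230 in the treated. BTK inhibitor replicate 4, the highest treated specimen, lay above vehicle replicates 1 and 3, at 7835 and 6294 CPM. Of the 6, 3 were still separated with the length trend removed. The members were the glucose transporters Slc2a1 and Slc2a3, the regulators and enzymes Pfkfb4 and Pfkp of the phosphofructokinase step, and Eno1 and Pgam1. Pfkfb4 was at 154, 140.0 and 122 CPM in vehicle and from 24.6 to 100.1 (median 90.2) in the treated, and Slc2a1 at 27.9, 30.9 and 29.6 against 10.1 to 25.2 (median 18.0). BTK inhibitor replicate 5 was the lowest specimen for both. Eno1 and Pgam1 have near-identical copies elsewhere in the genome and are uncertain: Eno1 averaged 1.21 ± 0.20 CPM in vehicle (SD, n = 3) and 0.673 ± 0.30 in the treated (SD, n = 9). Hif1a, the hypoxia factor that drives glycolytic genes, was at 71.2, 70.9 and 71.2 CPM in vehicle and from 10.9 to 56.1 (median 40.6) in the treated. Its vehicle values were nearly equal while the treated ones ranged over 5-fold.

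Myeloid cell markers were among the genes below vehicle. Of 20 mature neutrophil markers 4 (20.0%) were below, among them Cxcr2, Mmp9 and Mxd1, while 8 of the 20 were positive and the list's median was -0.18. That median was -0.07, -0.39 and -0.06 without vehicle replicates 1, 2 and 3, -0.08 without BTK inhibitor replicate 6 and -0.45 with the length trend removed. The summed level of these markers was between 10613 and 12792 CPM in vehicle and between 7945 and 17351 in the treated, so it overlapped. Cxcr2, the chemokine receptor that draws neutrophils out of marrow, was at 419.9, 466 and 422 CPM in vehicle and from 173 to 330.2 (median 260.0) in the treated, a log2 difference of -0.74 ± 0.19 SE. By treatment its log2 difference was -0.61, -0.96 and -0.66. Of 20 monocyte markers 4 (20.0%) were below, among them Csf1r, F13a1 and Itgax, with a median of -0.45 and an overlapping summed level (4076 to 4806 CPM against 2920 to 5026), while their mean log2 CPM did not overlap. With total-count scaling 0 of the 4 monocyte genes were separated. Of 17 immature neutrophil markers Mmp8 and Padi4 were below (11.8%), and the list's sum overlapped, at 94868 to 126916 CPM in vehicle and 66367 to 219578 in the treated. Such levels of granulocyte genes were measured in cells labelled mononuclear. Their part in the single-gene differences was not tested.

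Other genes with a wide gap below vehicle belonged to none of the lists. Mtus1, a microtubule-associated growth suppressor, was at 248, 264 and 227 CPM in vehicle and from 76.1 to 173 (median 148) in the treated. Sema6b, a membrane semaphorin, was at 9.44, 12.0 and 8.60 CPM in vehicle and from 3.17 to 6.61 (median 5.17) in the treated. Neither overlapped between the groups, and Mtus1 was no longer separated with the length trend removed. Exons of Mtus1 overlap B430010I23Rik on the other strand.

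Heme synthesis and iron genes led the genes above vehicle. Of 24 tested members 7 (29.2%) were above in all 9 treated specimens and 0 below. The 7 included Alad, Blvrb, Hebp1, Slc25a38, Urod and Uros. Slc25a38 brings glycine into mitochondria, and Alad, Uros and Urod are cytosolic enzymes of the pathway. The list's summed level overlapped, at 4285 to 5286 CPM in vehicle and 4991 to 11555 in the treated. The mean log2 CPM of its members did not overlap. Relative to the vehicle mean, it was at most 0.23 in vehicle (replicate 2) and at least 0.29 in the treated (BTK inhibitor replicate 6). The median of the list was 0.71, and 0.41, 0.83 and 0.93 with the BTK inhibitor, the PI3K inhibitor and both. That median was 0.51, 0.96 and 0.79 without vehicle replicates 1, 2 and 3. No member passed edgeR's quasi-likelihood test (smallest adjusted p = 0.131). With the length trend removed 5 of the 7 were still separated (median 0.78), and with total-count scaling 4 were.

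Uros (chr7:133686355-133709295), uroporphyrinogen III synthase, was at 21.0, 31.6 and 39.5 CPM in vehicle and from 57.6 to 184 (median 75.9) in the treated, a log2 difference of 1.47 ± 0.30 SE. PI3K inhibitor replicate 9 stood far above the other treated specimens, and the 3 BTK inhibitor specimens and combination replicate 12 were the 4 lowest of them. Alad, the enzyme that joins the first pair of heme precursors, was at 42.0, 91.8 and 104 CPM in vehicle and from 130.1 to 589.7 (median 199) in the treated. Hebp1 (chr6:135137519-135168215), a heme-binding protein, was at 27.1, 45.2 and 58.2 CPM in vehicle and from 91.5 to 341 (median 151) in the treated, a log2 difference of 1.97 ± 0.40 SE. Vehicle replicate 1 was the lowest of the 12 specimens for all 3 of these genes.

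Erythroid markers were mostly on the positive side, and few were separated. Of 24 tested members 2 (8.33%) were above in all 9, the transcription factor Gata1 and the blood group antigen Rhd, while 21 were positive and the median was 0.79. The summed level was 1541, 4784 and 3476 CPM in vehicle and between 3246 and 8551 in the treated, so it overlapped. Gata1 was at 26.6, 59.5 and 54.9 CPM in vehicle and from 72.4 to 211 (median 104) in the treated, and Rhd at 32.4, 113 and 79.7 against 119.9 to 356 (median 204). Neither was separated with the length trend removed or with total-count scaling. Without vehicle replicate 1, the lowest for both, the median of the list was 0.39, and without vehicle replicate 2 it was 1.23. The alpha and beta globin genes of the list were not tested. Whether the heme genes move with the share of erythroid cells was not tested. Gp9, a platelet receptor subunit, was the 1 separated member of 17 megakaryocyte markers (5.88%).

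**Figure D3:**
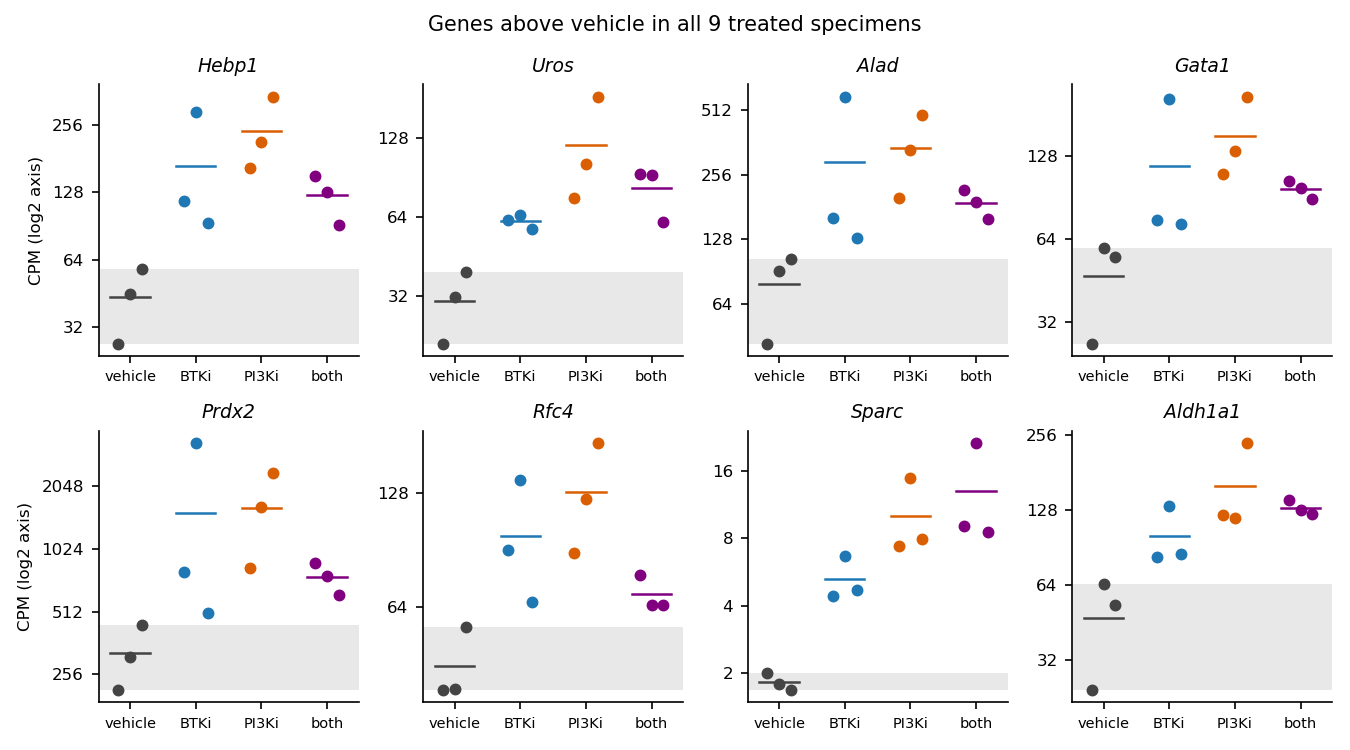
Level in each specimen (points, CPM on a log2 axis) of 8 genes above vehicle, by group, with group means as lines and the vehicle range shaded; "both" is the combination. The 9 treated points lie over the shaded range in every panel, and vehicle replicate 1 is the lowest specimen for all genes shown except Sparc and is close to replicate 2 for Rfc4.

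DNA replication genes were above vehicle next. Of 39 tested members 11 (28.2%) were above in all 9 and 0 below, with a median of 0.51 and 37 of 39 positive. They cover several steps of copying DNA: Orc6 of the origin recognition complex, Gins1 of the helicase, Pcna and its loader subunits Rfc2 and Rfc4, the single-strand binding proteins Rpa1 and Rpa2, the flap nuclease Fen1, and Dut, Tk1 and Tyms of thymidine nucleotide supply. The summed level was 3724, 5268 and 4650 CPM in vehicle and between 5706 and 9086 in the treated, without overlap. By treatment the medians were 0.24, 0.70 and 0.45. With the length trend removed 5 of the 11 were still separated (median 0.38), as with total-count scaling (median 0.33).

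Rfc4 was at 38.5, 38.6 and 56.5 CPM in vehicle and from 64.7 to 174 (median 89.1) in the treated, a log2 difference of 1.10 ± 0.28 SE. Its exons overlap Eif4a2 on the other strand, and the library preparation does not mark strand. Rpa2 was at 47.7, 63.4 and 64.9 CPM in vehicle and from 76.7 to 340.3 (median 100.4) in the treated, where BTK inhibitor replicate 5 was by far the highest. Gins1 was at 23.5, 20.7 and 28.0 CPM in vehicle and from 29.6 to 77.9 (median 37.9) in the treated, and it was not separated with the length trend removed. Mitosis genes had 2 of 31 (6.45%) above, Cenpa and Smc2, with a median of 0.21, which was 0.14 without vehicle replicate 1 or BTK inhibitor replicate 6. Smc2, a condensin subunit, had an edgeR adjusted p = 0.223, and its highest value, 669 CPM in BTK inhibitor replicate 5, lay far from the next treated specimen at 331.

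Histone genes had 5 of 20 members (25.0%) above: Hist1h1a, Hist1h1b, Hist1h1d, Hist1h2ac and Hist1h4a. The list's median was 0.89, and 0.27 with the length trend removed, where 2 of the 5 were still separated. By treatment it was 1.09 with the BTK inhibitor, 1.13 with the PI3K inhibitor and 0.39 with both. The summed level overlapped, at 1498 to 2255 CPM in vehicle and 1820 to 3838 in the treated. The mean log2 CPM overlapped too, with combination replicate 12 at 0.10 and vehicle replicate 3 at 0.24 relative to the vehicle mean. Replication-dependent histones are short, near-identical and mostly lack a poly(A) tail, so single histone genes are uncertain in libraries primed on poly(A). Hist1h1d was at 2.59, 1.92 and 2.85 CPM in vehicle and from 2.92 to 17.8 (median 6.35) in the treated. The chromatin list had 1 of 31 (3.23%) above, a share near the 2.52% of all tested genes. Most of that list went the other way, with 25 of 31 members negative and a median of -0.40, which was 0.05 with the length trend removed. The 1 gene above was Ezh2, the histone methyltransferase of Polycomb. Ezh2 was at 80.0, 102 and 109 CPM in vehicle and from 119.6 to 395 (median 136) in the treated, and BTK inhibitor replicate 5 alone exceeded 170 CPM.

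Antioxidant enzymes had 4 of 24 (16.7%) above: Mgst3, Prdx2, Sod1 and Txnrd2. Prdx2, a peroxiredoxin abundant in red cells, was at 215, 311 and 443 CPM in vehicle and from 507 to 3294 (median 829) in the treated, a log2 difference of 1.92 ± 0.54 SE. BTK inhibitor replicate 5 was the highest and replicate 6 of the same group the lowest treated specimen. Mgst3, a membrane glutathione transferase, was at 25.0, 41.8 and 48.4 CPM in vehicle and from 69.7 to 256 (median 133) in the treated. The list's median was 0.64, and 0.30 with the length trend removed, where 2 of the 4 were still separated. By treatment it was 0.39 with the BTK inhibitor, 1.02 with the PI3K inhibitor and 0.15 with both. The summed level overlapped, at 5357 to 6382 CPM in vehicle and 5565 to 18449 in the treated. The mean log2 CPM narrowly did not, with vehicle replicate 3 at 0.14 and BTK inhibitor replicate 6 at 0.16 relative to the vehicle mean. Txnrd2 is uncertain in libraries without strand.

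Short housekeeping genes were positive almost throughout but rarely separated. All 45 nuclear genes of oxidative phosphorylation had a positive difference (median 0.83), yet 0 of 45 was separated, and their median was 1.07, 1.25 and 0.14 in the 3 treatments. Their median was 0.26 with the length trend removed. Of 39 cytoplasmic ribosomal protein genes, also all positive, 2 (5.13%) were above, Rplp0 and Rps2, of 32 mitochondrial ones 1 (3.12%), and of 31 proteasome genes 1 (3.23%). Their median lengths were 772 bases for oxidative phosphorylation and 734 for cytoplasmic ribosomal proteins, against 2835 over all tested genes.

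Sparc (chr11:55394159-55420080), a secreted matrix protein of bone and stroma, had the widest gap of the named genes above vehicle (1.09 on the log2 scale). It was at 2.01, 1.80 and 1.68 CPM in vehicle and from 4.41 to 21.2 (median 7.98) in the treated, a log2 difference of 2.25 ± 0.37 SE. The mean CPM of the treated specimens was 5.15-fold that of the vehicle specimens. The BTK inhibitor specimens were the lowest treated ones, at 4.41 to 6.66 CPM, and the difference was 1.49, 2.45 and 2.82 in the 3 treatments. Ibsp, bone sialoprotein, was the other separated member of the 13 tested stroma and bone markers (15.4%), whose summed level overlapped (70.5 to 93.4 CPM in vehicle, 63.2 to 280.1 in the treated). Both were still separated with the length trend removed. Ctsk, a collagen-degrading protease of osteoclasts, was at 3.85, 0.898 and 6.31 CPM in vehicle and from 9.06 to 21.0 (median 14.1) in the treated. The part of stromal or bone cells in these levels was not tested.

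Several metabolic genes had a wide gap above vehicle and belong to no list. Aldh1a1, an aldehyde dehydrogenase that makes retinoic acid, was at 24.3, 64.4 and 53.3 CPM in vehicle and from 82.8 to 237 (median 123) in the treated. Ephx2, the soluble epoxide hydrolase of lipid mediators, was at 1.61, 2.57 and 2.72 CPM in vehicle and from 4.73 to 15.8 (median 7.27) in the treated. Fn3k, a kinase that repairs glycated proteins, was at 1.92, 7.02 and 3.63 CPM in vehicle and from 9.18 to 30.3 (median 18.7) in the treated. All 3 were still separated with the length trend removed, as were Ubac1 and Tmem9, while Mylpf was not. Asb17os is antisense to Asb17 and is uncertain in libraries without strand.

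**Figure D4:**
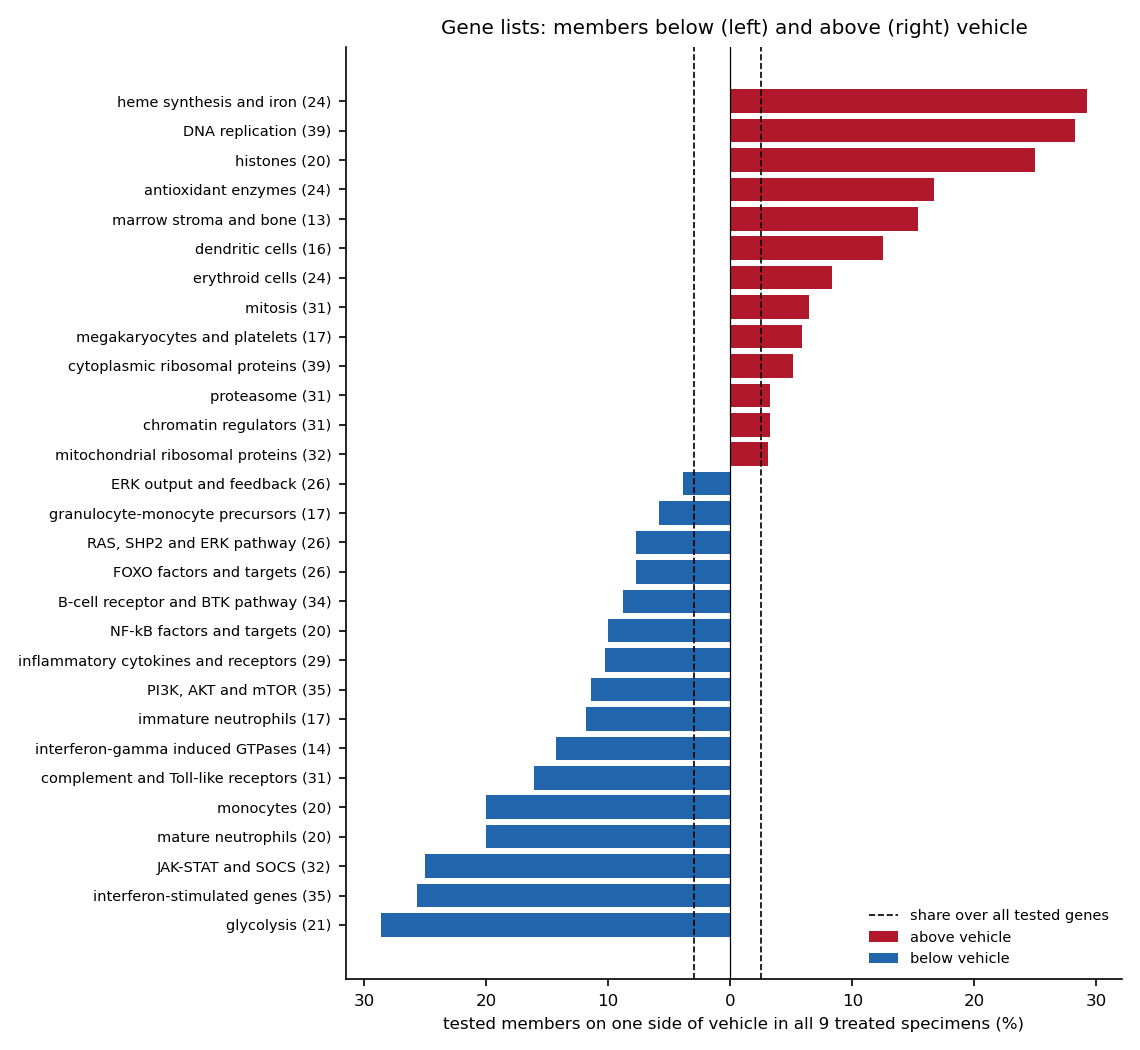
Share of the tested members of each list (x axis, %, number tested in brackets) below (blue, left) or above (red, right) vehicle in all 9 treated specimens, with dashed lines at the shares over all tested genes, 2.99% and 2.52%. Glycolysis, interferon-stimulated genes and JAK-STAT reach furthest to the left, at 28.6%, 25.7% and 25.0%, and heme synthesis, replication and histones furthest to the right, at 29.2%, 28.2% and 25.0%; lists with no separated member are not drawn.

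No gene passed the F test among the 3 treatments in edgeR's quasi-likelihood fit (0 of 12742 genes, 0%, smallest adjusted p = 0.193), with 3043 genes at an unadjusted p under 0.05. DESeq2 called 351 and limma voom with sample quality weights 4837, and edgeR called 2952 without BTK inhibitor replicate 6. Set side by side against the same 3 vehicle specimens, the genes above had a median log2 difference of 1.04 with the BTK inhibitor, 1.26 with the PI3K inhibitor and 0.63 with both. The genes below had -0.76, -0.93 and -0.48. The largest of the 3 differences was that of the PI3K inhibitor for 205 of 321 (63.9%) and 278 of 381 (73.0%) genes, against 51.3% of all tested genes. It was that of the combination for 14 and 21, against 16.0% of all tested genes. In the same edgeR fit, the PI3K inhibitor alone against vehicle had 617 genes called higher (4.84%) and 742 lower (5.82%), among them 180 of the 321 above and 124 of the 381 below, whose choice used these specimens. The BTK inhibitor and the combination had 0 (0%) each against vehicle, with 3153 and 626 genes at an unadjusted p under 0.05.

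**Figure D5:**
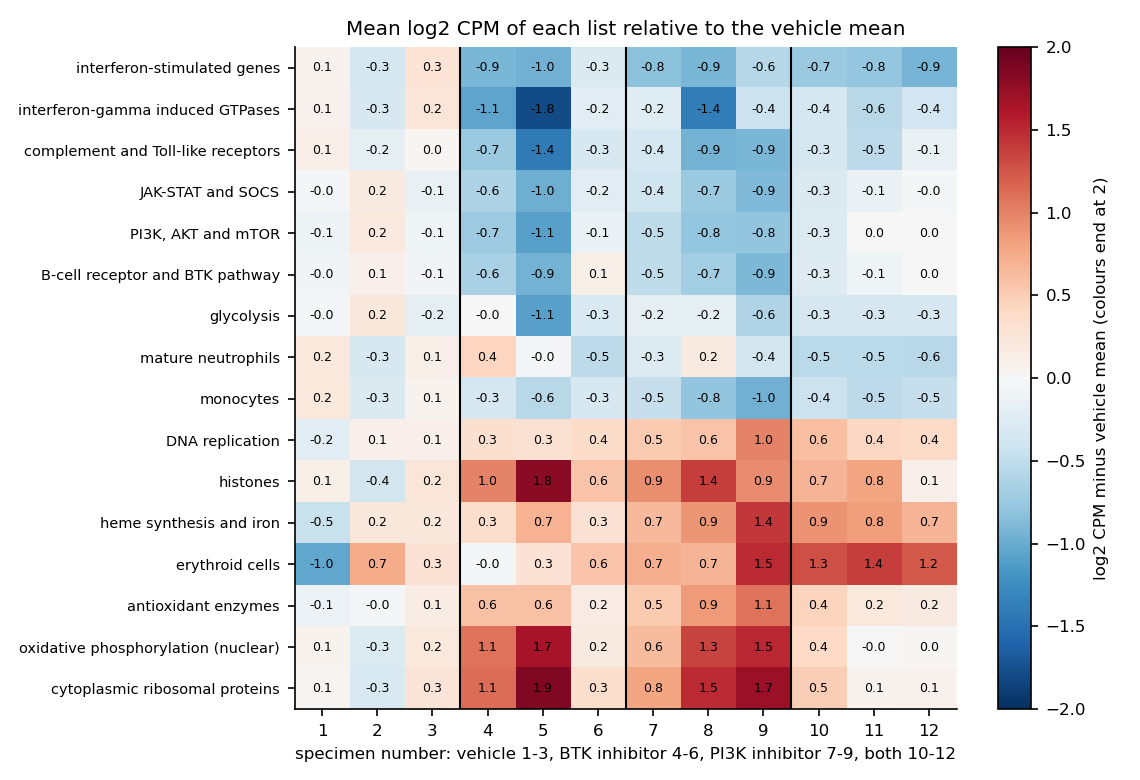
Mean log2 CPM of 16 lists (rows) in each of the 12 specimens (columns), relative to the mean of the 3 vehicle specimens, with red above and blue below. Interferon-stimulated genes are below 0 in all 9 treated columns but also in vehicle specimen 2 (-0.35), which lies below treated specimen 6 (-0.29), while oxidative phosphorylation and ribosomal protein genes are red mainly in specimens 4, 5 and 7 to 9 and near 0 in specimens 11 and 12.

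The remaining lists had no member on one side of vehicle in all 9 treated specimens, or only a few. None was separated among 12 MHC class II genes, 27 sterol and fatty acid synthesis genes, 23 genes of the unfolded protein response and 16 of the BCL2 family. The same held for markers of stem and progenitor cells, macrophages, eosinophils, basophils and mast cells, B-lineage precursors, mature B cells, plasma cells, T cells, NK cells and endothelium. Summed T-cell markers were at 130.3 to 230.1 CPM in vehicle and 88.1 to 393.4 in the treated, and B-lineage precursor markers at 490.6 to 699 and 482 to 1145. Of 17 granulocyte and monocyte precursor markers 1 (5.88%) was below, Csf1r. Of 16 dendritic cell markers 2 (12.5%) were above, Cd300c and Ly6d, the latter also a gene of lymphoid progenitors, at 26.7, 30.7 and 27.7 CPM in vehicle and from 34.1 to 136 (median 57.3) in the treated. Neither was separated with the length trend removed.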

How the data were processed

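RNA of bone marrow mononuclear cells was made into full-length cDNA libraries with a SMART-Seq low-input kit and Nextera XT, per the labels' protocols. The submitters' processing notes name STAR, featureCounts and mm10. Versions, annotation and the strand setting were not given in the sources used, and this preparation does not mark strand, so overlapping and antisense genes cannot be told apart. Exons of Mtus1, Pfkp, Rasgrp4 and Tesk2 also overlap a gene on the other strand, so these genes are uncertain. The deposited values are whole-number counts for 24421 gene symbols, with gene length, in 1 column for each of 12 specimens, while 24 samples are listed. The titles give each specimen number to more than 1 sample. Totals ran from 8993950 to 22154833 counts. Whether the 12 numbers are 12 mice is not stated, so p-values cover only the spread between specimens, which may be technical.

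Genes passing edgeR's filterByExpr (minimum count 10) were tested in edgeR 4.0.16 (R 4.3.3) with TMM scaling and a robust quasi-likelihood fit of the 4 group means. The contrast was the mean of the 3 treated groups minus vehicle, and an F test compared the treated groups. P-values were adjusted by Benjamini-Hochberg over all 12742 genes. Standard errors come from the F statistic. A gene was separated when all 9 treated TMM-scaled CPM lay on the same side of all 3 vehicle values. Gaps used log2 CPM with a prior count of 2. The length trend was removed per specimen with a natural spline (5 degrees of freedom) of log2 length. Promoters are from RefSeq. The tests were tried on simulated counts.

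Named genes (mean log2 CPM 2 or more) were the 12 per direction with the widest gap, leaving out predicted genes, up to 3 separated members per list, Btk, Pik3cd, Ptpn11, and the genes just inside and just outside the rule. Other separated list members are named after their values were seen, and some members are not reported here. The members and the 43 lists were chosen with earlier results of these data known. Alternatives were DESeq2 1.42.0, limma 3.58.1 voom with sample quality weights, other scalings and filters, a 2-group fit, a length offset and leaving out specimens.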

Additional observations from a re-analysis of the deposited data

Results flagged for a closer look

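Of 79 values examined over the 9 treated specimens, 13 (16.5%) had a specimen far from the others, where the cutoff used sets apart about 1 in 20 independent groups by chance. All 13 were in 2 libraries, so the values are not independent. BTK inhibitor replicate 5 stood apart in total counts (8993950), in genes with a count (13560) and in the share of Rn45s (15.4%). It was also far above the other treated specimens for Rpa2 (340.3 CPM), Ezh2 (395 CPM), Hist1h1d (17.8 CPM), Smc2 (669 CPM) and Psmd11 (234 CPM). PI3K inhibitor replicate 9 was far above the other treated specimens for Ephx2 (15.8 CPM), Uros (184 CPM), Tmem9 (85.3 CPM), Aldh1a1 (237 CPM) and Gins1 (77.9 CPM). All 10 genes lie above vehicle in the other treated specimens as well.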

How the results depend on the processing

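The number of calls differed between settings. DESeq2 called 472 genes higher, 410 lower and 351 among treatments, and limma voom with sample quality weights called 1921, 2009 and 4837. Leaving out 1 specimen at a time gave 0 to 1163 higher, 0 to 1367 lower and 0 to 2952 among treatments, with every call from the fit without BTK inhibitor replicate 6. Chosen after seeing the data, a fit without BTK inhibitor replicates 5 and 6 called 1143, 1605 and 2708, and a length offset without replicate 5 called 80 and 197. Separated genes numbered 54 above and 60 below at a gap of at least 0.25, and 491 above without BTK inhibitor replicates 5 and 6. Leaving out 1 specimen gave 319 to 893 above and 386 to 1106 below, the highest without vehicle replicate 3. Total-count scaling gave 262 and 298, sharing 152 and 182 with those reported, and moved the median of all genes to -0.15 on the log2 scale. The difference in length slope ran from -0.34 to -0.20 leaving out 1 specimen and was -0.35 over genes whose mean log2 CPM was 4 or more. Of 75 named genes, 74 kept their direction in every setting run, while Btk, leaving out 1 specimen at a time, ran from -0.13 (without vehicle replicate 2) to 0.0125 (without vehicle replicate 1) on the log2 scale. The cause of these differences was not tested. No paired analysis was possible because the groups share no specimen numbers. With 3 vehicle specimens, 1 library can set whether a gene counts as separated.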
